A study of Xenopus laevis with 22 samples.

Results

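A small set of 13 gene symbols stood higher at 6 h than at both 3 h and 9 h after Multicilin was switched on in frog animal caps. They were neurl, rapgef5, angpt2, rtn1, nell2, als2cr8, sall3, sh3rf2, slit1, gcnt1, pde3a, popdc2 and foxp2. They were chosen by their levels in 8 libraries of Multicilin caps. The mean at 6 h had to be at least 5 CPM, that is 5 estimated fragments per 1000000 in the library, and at least 2 times both the 3 h and the 9 h mean. The rule was met by 13 of 13473 named symbols, or 0.0965%, and 8249 symbols reached 5 CPM at 6 h. Because these levels chose the members, they are given as a description with no test. The tests given here use 8 libraries of dnE2f4 caps that the rule did not read.

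The animal cap is the prospective ectoderm of the Xenopus laevis embryo, cut out at stage 10 and cultured as a simple epithelial explant. All RNA groups carried injected mRNA for MCIDAS-HGR, which is Multicilin joined to the human glucocorticoid receptor, and all received 20 µM dexamethasone at mid-stage 11 to activate it. The dnE2f4 caps also carried mRNA for a dominant-negative E2f4, a mutant of the transcription factor through which Multicilin acts, and the Multicilin caps did not. Each condition was harvested 3, 6 and 9 h later at 22 °C, near stages 13, 16 and 18, with 3 libraries per group and 20 caps per library. Every RNA library used here held Multicilin and dexamethasone, so a change with time cannot be told apart from the ageing of the explant. The p-values measure the spread between these libraries, since the labels do not say whether a replicate was a separate clutch. A bulk library also cannot tell fewer cells of a type from less RNA per cell.

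Multicilin is a coiled-coil regulator that joins E2f4 or E2f5 and turns on the genes for centriole assembly and motile cilia in multiciliated cells. In the frog skin these cells form in an inner layer, intercalate outwards and then build their cilia, with Notch signalling limiting how many cells take this fate. The 13 members are known for other work than cilia. They include secreted ligands, regulators of signalling inside the cell, transcription factors, a membrane protein of the endoplasmic reticulum and a Golgi enzyme.

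The injected dnE2f4 serves as a check of the labels, because its reads fall on e2f4. At 3 and 6 h e2f4 ran from 3518 to 11078 CPM in dnE2f4 caps, against 20.9 to 36.1 CPM in Multicilin caps. At 9 h replicates 1 and 3 held 1471 and 1235 CPM in dnE2f4 caps, against 14.1 and 14.4 CPM in Multicilin caps. The library labelled dnE2f4 9 h replicate 2 held 14.2 CPM and the library labelled Multicilin 9 h replicate 2 held 1427 CPM, opposite to their labels. Both were left out, so each 9 h group has 2 libraries. The 18 libraries held 9159519 to 38099850 estimated fragments. In 2 of them, dnE2f4 3 h replicate 1 and dnE2f4 9 h replicate 3, fragments had been assigned to another set of 35532 targets in place of 24383, and values were therefore summed by symbol.

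**Figure D1:**
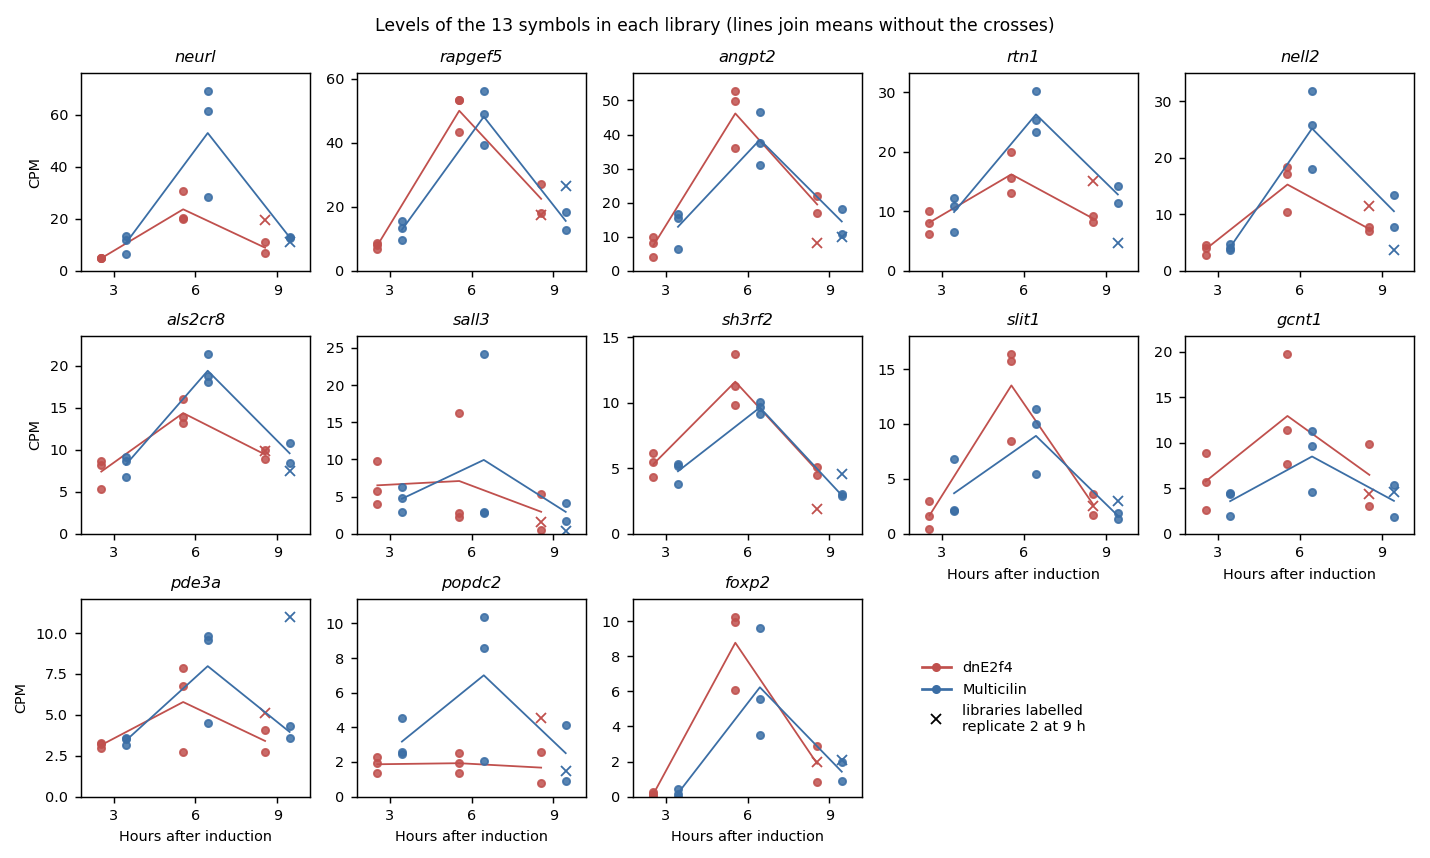
CPM of each of the 13 symbols (vertical axis, linear from 0) by hours after induction, dnE2f4 left of Multicilin at each time. Points are libraries, lines join group means, and crosses are the libraries labelled replicate 2 at 9 h, which are in no mean. The blue lines all peak at 6 h, as the rule requires. The red line of popdc2 stays nearly flat, with means of 1.87, 1.93 and 1.67 CPM at 3, 6 and 9 h.

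Among the members are 3 genes for secreted proteins of cell to cell signalling. Angiopoietin 2, encoded by angpt2, is a ligand of the Tie2 receptor of blood vessels. In dnE2f4 caps angpt2 stood at 9.97, 8.30 and 4.15 CPM at 3 h, 49.7, 52.7 and 36.1 CPM at 6 h, and 22.0 and 17.0 CPM at 9 h. In Multicilin caps it stood at 16.7, 15.6 and 6.56 CPM at 3 h, 46.8, 37.6 and 31.2 CPM at 6 h, and 18.2 and 10.8 CPM at 9 h. In both conditions all 3 libraries of 6 h lay above every library of 3 and 9 h.

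Slit1 is a secreted ligand of Robo receptors that guides axons and migrating cells. Its symbol, slit1, was at 1.59, 2.95 and 0.471 CPM at 3 h, 8.42, 15.8 and 16.4 CPM at 6 h, and 1.68 and 3.62 CPM at 9 h in dnE2f4 caps. The Multicilin caps gave 2.105, 6.83 and 2.13 CPM at 3 h, 5.40, 11.4 and 9.96 CPM at 6 h, and 1.38 and 1.91 CPM at 9 h. There the 6 h libraries overlapped those of 3 h, since replicate 2 was high at 3 h and replicate 1 low at 6 h. In dnE2f4 caps no library of 3 or 9 h reached those of 6 h. Its 9 h mean in Multicilin caps was the lowest of the 13 relative to 3 h, at 0.446 times the 3 h mean.

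The secreted glycoprotein encoded by nell2 has epidermal growth factor repeats and is best known from neurons. Its levels were 4.02, 2.85 and 4.62 CPM at 3 h, 17.1, 10.3 and 18.3 CPM at 6 h, and 7.81 and 7.01 CPM at 9 h in dnE2f4 caps. Those in Multicilin caps were 4.78, 3.65 and 4.10 CPM at 3 h, 18.0, 25.8 and 31.7 CPM at 6 h, and 7.76 and 13.3 CPM at 9 h. The 6 h libraries were the highest in both conditions, and in Multicilin caps the 9 h mean stayed 2.52 times the 3 h mean. Both 9 h libraries there lay above all of 3 h.

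A second group of 5 acts inside the cell on signalling. The symbol neurl is an older name of a Neuralized-type E3 ubiquitin ligase, and Drosophila Neuralized is known for driving endocytosis of Notch ligands in the cell that sends the signal. The dnE2f4 caps held neurl at 4.87, 4.86 and 4.93 CPM at 3 h, 20.6, 20.0 and 30.6 CPM at 6 h, and 11.0 and 6.90 CPM at 9 h. The Multicilin caps held it at 13.4, 12.01 and 6.64 CPM at 3 h, 28.4, 69.1 and 61.6 CPM at 6 h, and 13.1 and 12.8 CPM at 9 h. Its 6 h mean was 53.05 ± 21.7 CPM (SD, n = 3) in Multicilin caps, the highest of the 13 in this unit, with replicate 1 well below the other two.

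Exchange factors of the Rapgef family load Rap GTPases, which act in cell adhesion, with GTP, and rapgef5 encodes a member of that family. For rapgef5 the levels were 8.77, 8.09 and 7.001 CPM at 3 h, 43.4, 53.3 and 53.4 CPM at 6 h, and 18.0 and 27.1 CPM at 9 h in dnE2f4 caps. They were 15.5, 13.5 and 9.54 CPM at 3 h, 39.5, 56.1 and 48.9 CPM at 6 h, and 12.8 and 18.5 CPM at 9 h in Multicilin caps. Here the 6 h libraries of the conditions overlapped, and no library of 3 or 9 h reached them.

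Of pde3a, a phosphodiesterase that breaks down cyclic AMP and cyclic GMP, the dnE2f4 caps held 3.28, 3.19 and 2.98 CPM at 3 h, 2.75, 6.74 and 7.86 CPM at 6 h, and 2.73 and 4.07 CPM at 9 h. The Multicilin caps held 3.17, 3.57 and 3.52 CPM at 3 h, 4.52, 9.57 and 9.85 CPM at 6 h, and 3.59 and 4.31 CPM at 9 h. In each condition replicate 1 of 6 h stood well below replicates 2 and 3, and in dnE2f4 caps it lay below all 3 libraries of 3 h.

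A Popeye domain membrane protein that binds cyclic AMP and is best known from heart and muscle is encoded by popdc2. Its levels were 1.36, 1.96 and 2.27 CPM at 3 h, 1.34, 1.93 and 2.51 CPM at 6 h, and 0.769 and 2.57 CPM at 9 h in dnE2f4 caps. In Multicilin caps they were 2.56, 4.51 and 2.46 CPM at 3 h, 2.04, 8.59 and 10.4 CPM at 6 h, and 0.885 and 4.13 CPM at 9 h. The high levels at 6 h in Multicilin caps were those of replicates 2 and 3, while replicate 1 lay below every 3 h library. No library of dnE2f4 caps used here reached the 6 h level of those 2 libraries.

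The protein encoded by sh3rf2 has a RING finger and SH3 domains. It measured 6.17, 5.45 and 4.31 CPM at 3 h, 13.7, 11.3 and 9.83 CPM at 6 h, and 4.50 and 5.12 CPM at 9 h in dnE2f4 caps. The Multicilin caps gave 5.16, 5.33 and 3.80 CPM at 3 h, 10.1, 9.67 and 9.16 CPM at 6 h, and 2.87 and 3.00 CPM at 9 h. The 6 h libraries were the highest and close together in Multicilin caps, 9.63 ± 0.448 CPM (SD, n = 3), and the 9 h mean was 0.616 times the 3 h mean.

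Transcription factors made up 3 members. The forkhead factor foxp2 is known in mammals and birds for its part in the brain circuits of vocal learning. In dnE2f4 caps foxp2 measured 0.0566, 0.246 and 0.136 CPM at 3 h, 6.11, 9.97 and 10.3 CPM at 6 h, and 0.827 and 2.91 CPM at 9 h. In Multicilin caps it measured 0.124, 0.430 and 0 CPM at 3 h, 3.53, 9.62 and 5.57 CPM at 6 h, and 0.886 and 1.95 CPM at 9 h. It was close to 0 at 3 h and stood above that in every library of 6 and 9 h. The summed fragments of 3 libraries were 545 at 6 h and 8 at 3 h in dnE2f4 caps. Scaled by the summed library totals, that is a ratio of 52.4 with an exact 95% interval of 26.4 to 122. In Multicilin caps the summed fragments were 375 at 6 h and 13 at 3 h, a ratio scaled in the same way of 29.5. No interval is given for that ratio, because the rule chose foxp2 by these levels. The interval for dnE2f4 caps covers counting error only, and not the spread between libraries. The library at 0 allows a level of up to 0.246 CPM, from 3 counts of its total.

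Sall3 is a zinc finger factor of the spalt family, which acts in limb, nerve and sense organ development. The symbol sall3 gave 9.80, 4.03 and 5.72 CPM at 3 h, 16.2, 2.26 and 2.84 CPM at 6 h, and 5.36 and 0.551 CPM at 9 h in dnE2f4 caps. It gave 6.31, 4.85 and 2.95 CPM at 3 h, 24.2, 2.88 and 2.73 CPM at 6 h, and 4.11 and 1.77 CPM at 9 h in Multicilin caps. The high mean at 6 h rested on replicate 1 of each condition, and replicates 2 and 3 of 6 h lay below all 3 h libraries of their condition. Without Multicilin 6 h replicate 1, or without 3 h replicate 3, sall3 did not meet the rule.

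The older symbol als2cr8 stands for CARF, a calcium-responsive transcription factor described in mammalian neurons. Its values were 5.38, 8.15 and 8.70 CPM at 3 h, 16.1, 13.2 and 13.9 CPM at 6 h, and 8.89 and 10.0 CPM at 9 h in dnE2f4 caps. Those of Multicilin caps were 8.70, 9.19 and 6.80 CPM at 3 h, 21.4, 18.8 and 18.1 CPM at 6 h, and 8.38 and 10.8 CPM at 9 h. The 6 h libraries of each condition were close together and lay above all of 3 and 9 h.

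The last 2 members belong to the secretory pathway. Reticulon 1, from rtn1, shapes membranes of the endoplasmic reticulum and is abundant in neurons. Levels of rtn1 were 10.1, 8.03 and 6.26 CPM at 3 h, 19.9, 13.1 and 15.7 CPM at 6 h, and 9.28 and 8.29 CPM at 9 h in dnE2f4 caps. They were 12.2, 11.0 and 6.46 CPM at 3 h, 30.2, 25.4 and 23.3 CPM at 6 h, and 14.3 and 11.4 CPM at 9 h in Multicilin caps. The 6 h libraries stood above the others in both conditions, by a wider margin in Multicilin caps.

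A Golgi enzyme that branches O-linked sugar chains is encoded by gcnt1. Its dnE2f4 values were 2.66, 5.74 and 8.86 CPM at 3 h, 7.71, 11.4 and 19.8 CPM at 6 h, and 3.11 and 9.84 CPM at 9 h. Its Multicilin values were 1.98, 4.43 and 4.34 CPM at 3 h, 4.57, 9.62 and 11.3 CPM at 6 h, and 1.87 and 5.35 CPM at 9 h. At each time replicate 1 was lowest and replicate 3 highest in dnE2f4 caps, so the times overlapped although each number taken alone was highest at 6 h.

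In Multicilin caps 9 of the 13 had all 6 h libraries above all of 3 and 9 h, the other 4 being sall3, slit1, gcnt1 and popdc2. Over all named symbols 1.74% did so, and the rule had read these same levels. The members just inside the limit of 2 were pde3a at 2.019, sh3rf2 at 2.021 and als2cr8 at 2.026, each value being the smaller of the ratios of the 6 h mean to the 3 h and 9 h means. Just outside stood fut1 at 1.95, ipo4 at 1.91 and mybpc2 at 1.89. Only 3 members, foxp2, neurl and rapgef5, exceeded a ratio of 3. Leaving out each of the 8 libraries in turn gave 9 to 21 symbols. Of the 13, neurl, rapgef5 and angpt2 met the rule in every such repeat, and 10 failed it without at least 1 library. The count of 21 came without Multicilin 9 h replicate 3, and no other omission moved the count by over 1.5 times.

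The step from 3 to 6 h was then tested in dnE2f4 caps, whose libraries had no part in choosing the members. They are not fully independent of those that did, because libraries of the 2 conditions with the same replicate number deviated together from their group means. Across 8143 symbols the correlation of these deviations was 0.241 to 0.449 at 3 h and 0.638 to 0.809 at 6 h for the same number, and -0.623 to 0.0578 for different numbers, symbols not being independent replicates. All 13 passed the filter on low counts. Between 6 h and 3 h 9 of the 13 rose, against 22.8% of 11013 symbols tested that rose and 20.9% that fell (edgeR quasi-likelihood test, Benjamini-Hochberg adjusted p under 0.05 over all symbols). The rise of foxp2 was the steepest but its size is not exact, because of the few fragments at 3 h (log2 5.97 ± 0.69 SE, adjusted p = 0.000408). Next came the ligand gene slit1 (log2 3.1998 ± 0.64 SE, adjusted p = 0.00579) and the Rap exchange factor rapgef5 (log2 2.85 ± 0.23 SE, adjusted p = 7.1e-05). Close to them were angpt2 (log2 2.83 ± 0.33 SE, adjusted p = 0.000418), neurl (log2 2.47 ± 0.24 SE, adjusted p = 0.00018) and nell2 (log2 2.19 ± 0.29 SE, adjusted p = 0.000724). Smaller rises were those of sh3rf2 (log2 1.33 ± 0.22 SE, adjusted p = 0.0021), rtn1 (log2 1.18 ± 0.23 SE, adjusted p = 0.00481) and als2cr8 (log2 1.16 ± 0.22 SE, adjusted p = 0.00396).

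Of the remaining 4, gcnt1 had a log2 difference of 1.37 ± 0.62 SE and pde3a of 1.07 ± 0.41 SE, with edgeR adjusted p of 0.114 and 0.0651. The values were 0.32 ± 1.01 SE for sall3 and 0.23 ± 0.51 SE for popdc2, at adjusted p of 0.822 and 0.734. With replicate number as a block gcnt1 also passed, at an edgeR adjusted p of 0.00107, which makes 10 of 13, with 2978 of 11013 symbols called higher. Without dnE2f4 6 h replicate 1 pde3a passed at an edgeR adjusted p of 0.00814 and sall3 turned to a log2 difference of -1.17. The 9 that rose each kept an edgeR adjusted p under 0.05 without any single library, the highest being 0.0234 for rtn1. The median log2 difference of the 13 was 1.37, against 0.018 over all symbols tested. Scaling by library totals alone moved the median of all symbols by -0.20, turned the split of calls into 1999 higher and 3078 lower from 2512 and 2305, and still called 9 of the 13 higher.

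**Figure D2:**
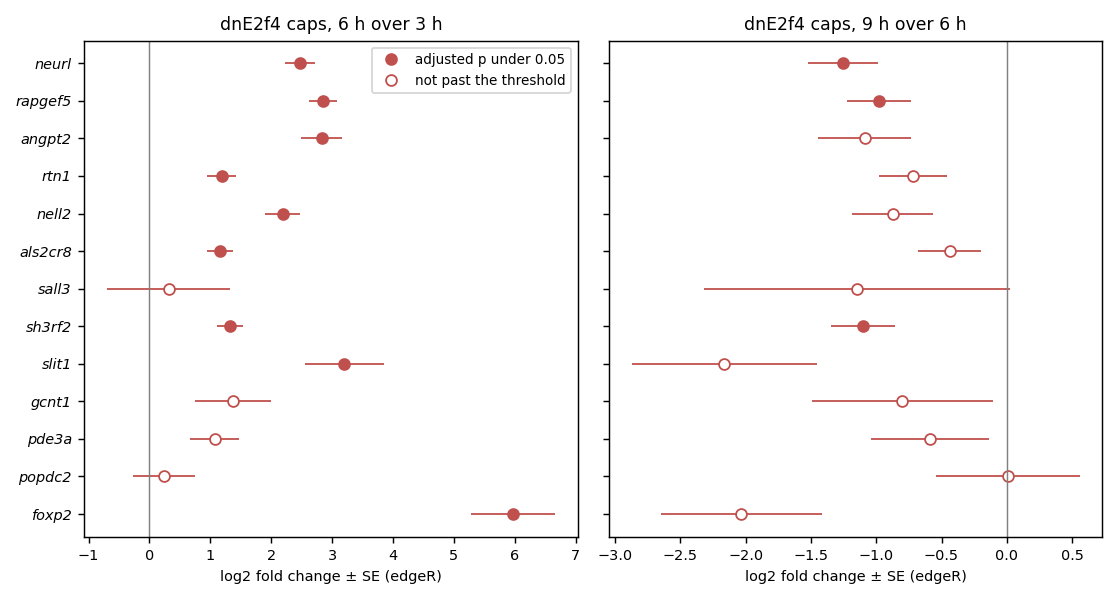
Log2 fold change with its standard error (horizontal axis, edgeR) of each symbol in dnE2f4 caps, 6 h over 3 h on the left and 9 h over 6 h on the right. Filled points passed an adjusted p of 0.05 in the fit without a replicate block, and open points did not. On the left 9 points are filled and on the right 3, neurl, rapgef5 and sh3rf2.

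The step from 6 to 9 h rested on 2 libraries at 9 h, of which replicate 3 was of the other target set. Between 9 h and 6 h 3 of the 13 fell in dnE2f4 caps, neurl (log2 -1.25 ± 0.26 SE, adjusted p = 0.0179), sh3rf2 (log2 -1.10 ± 0.25 SE, adjusted p = 0.0213) and rapgef5 (log2 -0.98 ± 0.25 SE, adjusted p = 0.0312), against 9.81% of all symbols tested that fell and 9.12% that rose (edgeR). In all, 12 of the 13 had a log2 difference below 0. The exception was popdc2 at 0.01 ± 0.55 SE, which came to -1.17 without the 2 libraries of the other target set. That setting leaves replicate 1 alone at 9 h, and gave log2 differences of -0.999 for neurl, -1.27 for sh3rf2 and -1.37 for rapgef5. Larger differences than those of the 3 did not pass for slit1 (log2 -2.16 ± 0.71 SE, adjusted p = 0.0721) and foxp2 (log2 -2.03 ± 0.62 SE, adjusted p = 0.0554). The log2 differences of sall3, angpt2, nell2, gcnt1, rtn1, pde3a and als2cr8 were -1.15, -1.09, -0.88, -0.80, -0.72, -0.59 and -0.44, with edgeR adjusted p from 0.0683 for angpt2 to 0.541 for sall3. The median of the 13 was -0.98, against -0.007 over all symbols. By library totals alone the median of all symbols moved by -0.16, the split became 725 higher and 1756 lower in place of 1004 and 1080, and 5 members were called lower.

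With replicate number as a block 8 of the 13 fell and 15.5% of all symbols did so. The 5 added were nell2, foxp2, gcnt1, angpt2 and rtn1, with edgeR adjusted p of 0.00799, 0.0142, 0.0162, 0.0391 and 0.0416. In the fit without the block, single libraries decided each of the 3 calls. For neurl the edgeR adjusted p was 0.0884 without dnE2f4 9 h replicate 3. For rapgef5 it was 0.121 without 9 h replicate 1, 0.0956 and 0.0901 without 6 h replicates 2 and 3, and 0.0544 without 3 h replicate 2. For sh3rf2 it was 0.103 and 0.059 without 9 h replicates 1 and 3, and 0.0512 and 0.0651 without 6 h replicates 1 and 2. In turn angpt2 passed at 0.0463 and 0.0292 without 3 h replicates 1 and 3, foxp2 at 0.0463 and 0.0289 without 3 h replicate 1 and 9 h replicate 3, and slit1 at 0.0392 without 3 h replicate 3. The count ran from 1, without 6 h replicate 2 or 9 h replicate 1, to 5, without 3 h replicate 1 or 3 h replicate 3. From uniquely assigned counts edgeR called 0 of the 13, with 6 at an unadjusted p under 0.05, and 2.22% of all symbols lower. DESeq2 on the estimated counts called 6 of the 13 and 12.6% of all symbols lower.

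Applied as it stands to dnE2f4 caps, the rule was met by 8 of the 13, namely neurl, rapgef5, angpt2, nell2, sh3rf2, slit1, gcnt1 and foxp2. Over the 12434 symbols in both target sets 26 met it, or 0.209%, and over the 7711 of them at 5 CPM or more in Multicilin caps 24 did, or 0.311%. Of the 8, gcnt1 had the smallest margin, its 6 h mean being 2.0001 times its 9 h mean. Those that did not meet it were rtn1, als2cr8, pde3a, sall3 and popdc2. With TMM scaling the count was 5 of 13, and again 26 symbols in all. In 9 of the 13 all 6 h libraries of dnE2f4 caps lay above all of 3 and 9 h, against 2.01% of symbols, the others being sall3, gcnt1, pde3a and popdc2. Without the 2 libraries of the other target set, which leaves replicate 1 alone at 9 h, 6 of 13 met the rule, among 19 of the 12434 symbols. In that setting edgeR called 9 of 13 higher at 6 h than at 3 h, and 25.2% of all symbols.

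**Figure D3:**
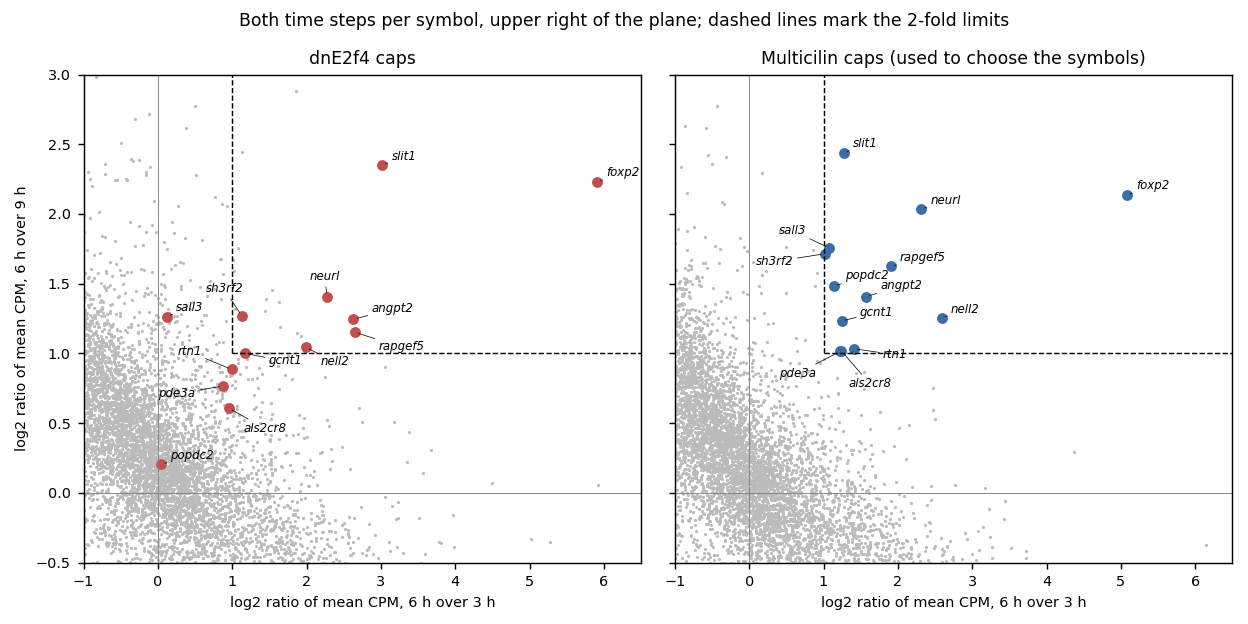
Each point is a symbol at 5 CPM or more in Multicilin caps at 6 h, placed by the log2 ratio of mean CPM at 6 h over 3 h (horizontal) and 6 h over 9 h (vertical), for dnE2f4 caps on the left and Multicilin caps on the right. Coloured points are the 13 symbols and dashed lines the 2-fold limits, with grey symbols outside the window not drawn. All 13 lie past both limits on the right, where they were chosen, and 8 do so on the left.

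At 6 h the members differed in where dnE2f4 caps stood relative to Multicilin caps. The log2 ratio of mean CPM, with 0.5 CPM added, was below 0 for 7 and above 0 for 6, with a median of -0.42 against 0.09 over the 8249 symbols at 5 CPM or more. Because the Multicilin libraries of 6 h chose the members for being high, the ratio has no test. It was lowest for popdc2, with means of 1.93 ± 0.585 CPM in dnE2f4 caps and 7.01 ± 4.39 CPM in Multicilin caps (SD, n = 3 each), a log2 ratio of -1.63. Then came neurl, at 23.7 ± 5.95 CPM in dnE2f4 caps and 53.05 ± 21.7 CPM in Multicilin caps (SD, n = 3 each), a log2 ratio of -1.15. In both the groups overlapped, because Multicilin 6 h replicate 1 stood low.

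For rtn1 and als2cr8 all dnE2f4 libraries of 6 h lay below all Multicilin libraries, as did 11.0% of the 8249 symbols, and for no member did they lie above, as 16.9% did. The means were 16.2 ± 3.48 CPM in dnE2f4 caps and 26.3 ± 3.52 CPM in Multicilin caps for rtn1 (SD, n = 3 each). For als2cr8 they were 14.4 ± 1.52 CPM in dnE2f4 caps and 19.4 ± 1.76 CPM in Multicilin caps (SD, n = 3 each). The highest log2 ratios were 0.58 for gcnt1 and 0.57 for slit1, both with overlapping groups. With TMM scaling the ratio of rapgef5 was -0.02 in place of 0.05, and nell2 joined rtn1 and als2cr8 with groups that did not overlap. The shares of all symbols given beside these readings are by library totals, with none given for TMM scaling. Taken by replicate number, since libraries of the same number deviated together, gcnt1, slit1, foxp2, angpt2 and sh3rf2 were higher in dnE2f4 caps in all 3 pairs, as were 41.9% of the 8249 symbols. The symbols popdc2, neurl, nell2, rtn1, pde3a and als2cr8 were lower in dnE2f4 caps in all 3 pairs, as were 23.9%. For gcnt1 the log2 ratios of the 3 pairs were 0.70, 0.23 and 0.78, and for slit1 0.60, 0.45 and 0.69. With TMM scaling angpt2 and sh3rf2 each turned to just below 0 in 1 pair, and sall3 was also lower in all 3. This reading by pair was added after the data were seen. It uses the Multicilin 6 h libraries that chose the members for being high, which favours lower values in dnE2f4 caps. The pairs are therefore a description with no test. Without any single 6 h library the median of the 13 came to between -0.29 and -0.059, over 1.5 times nearer 0 than with all 6 in every case except without Multicilin 6 h replicate 2.

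**Figure D4:**
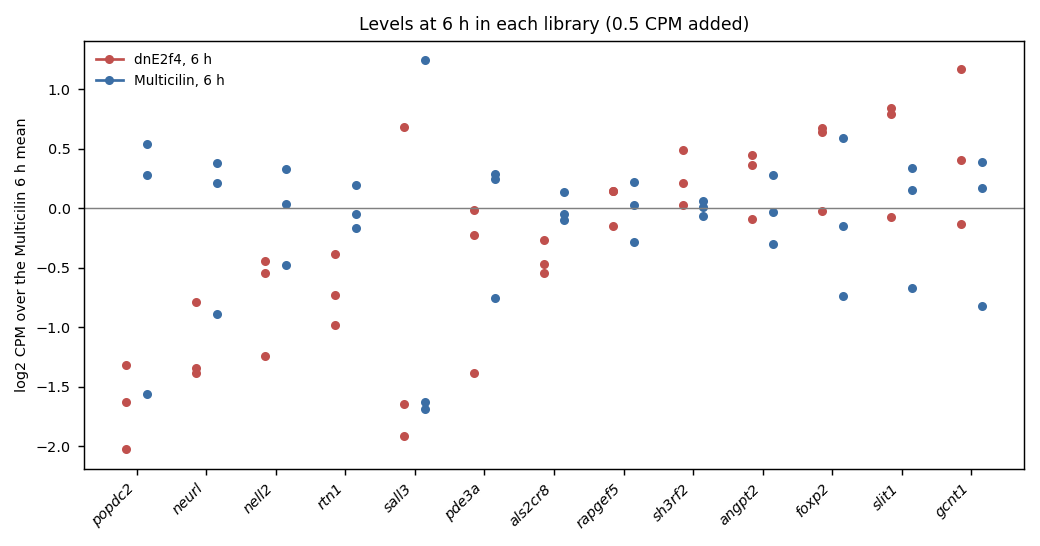
Log2 of the CPM of each 6 h library over the Multicilin 6 h mean of that symbol, with 0.5 CPM added (vertical axis), dnE2f4 left of Multicilin for each symbol. Symbols run from popdc2, with the lowest ratio of means, to gcnt1, with the highest. Red and blue points are apart only for rtn1 and als2cr8.

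E2f4 binding was a readout that the rule did not use. Peaks had been called by the authors from E2f4-GFP caps at 6 h, 12778 with Multicilin and 15693 without, each from 2 pooled replicates, so there is no replicate test. Each of these conditions used 300 caps. The labels give 20 µM dexamethasone for the condition with Multicilin and no dexamethasone entry for the one without. As labelled, Multicilin and dexamethasone cannot be told apart between the peak sets. With Multicilin a peak lay within 1 kb of a start for 3 of the 13 symbols, or 23.1% with a Wilson 95% interval of 8.18 to 50.3%, against 40.1% of the 8249 symbols at 5 CPM or more. Without Multicilin it was 4 of 13, or 30.8% with an interval of 12.7 to 57.6%, against 52.2%. Both intervals include the share of all symbols, but they treat the 13 chosen symbols as independent draws. A difference was not tested. Among 1385 symbols that were up at least 2-fold by 6 h and not down 2-fold by 9 h, the shares were 38.4% with Multicilin and 38.9% without.

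The calcium-responsive factor als2cr8 had a peak across its start in both sets, on JGIv7b scaffold 139113, where its target runs from 1074792 to 1149655 on the plus strand. The peak ran from 1074692 to 1074902 with Multicilin and from 1074633 to 1074829 without. For popdc2 a peak with Multicilin began 182 bp upstream of the start of its main target, on scaffold 347078 from 413676 to 418885 on the minus strand, and the nearest peak without Multicilin was 11017 bp away. In nell2 a peak without Multicilin lay 810 bp downstream of the start of its main target, on scaffold 30470 from 4149077 to 4277750 on the minus strand. The remaining cases were peaks at lesser targets, for sall3 in both sets and for gcnt1 without Multicilin. These targets held 11.6% and 3.22% of the level of their symbols at 6 h in Multicilin caps. At neurl the nearest peak with Multicilin was 3204 bp downstream of the start of its main target, on scaffold 7555 from 153638 to 218845 on the plus strand. At angpt2 the nearest without Multicilin was 1323 bp upstream, on scaffold 87714 from 44784 to 72278 on the minus strand.

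Xenopus laevis has a duplicated genome, and 11 of the symbols covered more than 1 target. In 11 of the 13 a single target held over 85% of the estimated fragments at 6 h in Multicilin caps. The exceptions were rtn1, with 53.6% and 46.4% on scaffolds 45985 and 133644, and pde3a, with 61.6% and 38.4% on scaffolds 14696 and 11605. At 3 h the split was more even for popdc2, neurl and sall3. On scaffolds 347078 and 136690 popdc2 held 1.79 and 1.39 CPM at 3 h, and 6.20 and 0.810 CPM at 6 h. For neurl scaffold 247724 fell from 3.05 to 0.200 CPM, while 7555 rose from 6.84 to 49.7 and 16863 from 0.695 to 3.15 CPM. The lesser target of sall3 also fell from 3 to 6 h, and its main target rose. Both targets of rapgef5 met the rule alone, at 41.6 and 6.53 CPM at 6 h. Of rtn1 only the target on scaffold 45985 did, since the 6 h mean of the other was 1.76 times its 9 h mean. Neither target of pde3a did, at 4.92 and 3.06 CPM at 6 h, both below 5 CPM, although both passed the 2-fold limits. Near-identical copies share fragments and the library kit keeps no strand, so the level of a single copy, or of a gene that overlaps another, is uncertain. Per kilobase of target the order of 6 h levels in Multicilin caps was led by angpt2 at 10.4, rapgef5 at 8.56 and neurl at 8.03 CPM per kb, and closed by sall3 at 1.92, pde3a at 1.89 and slit1 at 1.31 CPM per kb. The genes foxp2 and nell2 lay on the same scaffold, 3013257 bp apart.

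None of the 13 was among 767 listed symbols found in the files for multiciliated cell fate, centrioles, cilia, cell cycle, Notch, nerve and other tissues. Of these, 586 were among the 8249 symbols at 5 CPM or more at 6 h, so 0 of 13 does not set the members apart. Other Notch pathway genes were set beside neurl. In dnE2f4 caps 3 of 23 tested rose from 3 to 6 h, 9 fell and the others did not pass (edgeR). Over all symbols tested 22.8% rose and 20.9% fell. Among the 3 that rose were lfng, which modifies Notch with sugar, and psen2, whose product cuts it, with log2 differences of 0.96 ± 0.26 and 1.46 ± 0.27 SE. Of the 9 that fell the steepest were hey1 and nrarp, with log2 differences of -2.50 ± 0.44 and -2.43 ± 0.16 SE. From 6 to 9 h psen2 rose by 1.17 ± 0.29 SE, the ligand gene dll1 fell by 2.90 ± 0.50 SE on the log2 scale, and the other 21 did not pass. Over all symbols tested 9.12% rose and 9.81% fell in that step. The mean of lfng was 19.7, 33.4 and 19.7 CPM at 3, 6 and 9 h in dnE2f4 caps, and 14.3, 26.5 and 9.47 CPM in Multicilin caps. That is a peak at 6 h short of the limit of 2. In Multicilin caps lfng was the only 1 of the 29 Notch pathway genes found to meet the rule at a 1.5-fold limit. Of the 8249 symbols at 5 CPM or more 48 met it.

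Neural genes were listed as markers of a tissue that a cap could also hold. Of the members, nell2, slit1, rtn1 and foxp2 are known from nerve tissue. In dnE2f4 caps 2 of 25 tested rose from 3 to 6 h, sox21 by 2.35 ± 0.32 and myt1 by 0.66 ± 0.22 SE on the log2 scale, and 8 fell (edgeR). Of the 8 that fell the steepest were elavl3 and sox11, with log2 differences of -2.64 ± 0.17 and -2.16 ± 0.20 SE. Over all symbols tested 22.8% rose and 20.9% fell. From 6 to 9 h isl1 and insm1 rose and ncam1 fell. The neuronal factor myt1 averaged 60.0, 82.4 and 45.7 CPM at 3, 6 and 9 h in dnE2f4 caps, and 47.9, 91.1 and 52.6 CPM in Multicilin caps. It was the only 1 of the 39 neural markers found to meet the rule at a 1.5-fold limit in Multicilin caps. The summed level of the 39 neural markers found did not peak at 6 h in Multicilin caps, with 2560 to 3136, 6283 to 7513 and 9360 to 9975 CPM at 3, 6 and 9 h, most of it tubb2b. The means of tubb2b alone were 2408, 6478 and 9381 CPM at these times in Multicilin caps. The sum therefore follows tubb2b and does not describe the other markers. In dnE2f4 caps it ran from 369 to 2239, 3676 to 5726 and 262 to 8228 CPM, and the lowest values at 3 and 9 h came from the libraries with the other target set, where tubb2b was at 34.0 and 11.2 CPM. Of the 39, 13 stayed under 1 CPM. The part of nerve cells in the members' levels was not tested.

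Markers of other tissues that a cap could hold were listed in the same way. Of the members, angpt2 and popdc2 are known from vessels and muscle. The 22 mesoderm markers found summed to between 137 and 209 CPM over the groups, with 5 of them under 1 CPM. The 11 endoderm markers found summed to between 39.7 and 296 CPM. Genes of the outer epidermal layer summed to at least 26349 CPM in every library of these caps, which are labelled as ectoderm.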

How the data were processed

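RNA was measured in 18 libraries. Per the file headers the authors' tables hold eXpress estimated counts (expected counts) and uniquely assigned counts per target, with no normalization. The submitters' processing notes also name HOMER, DESeq, Bowtie, Bowtie2 and STAR, with roles and versions not given in the sources used here. Peaks came from HOMER on pooled replicates against input, per the file headers, and the deposited score is the same on every line.

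Estimated counts were summed by lower-case symbol. Unnamed symbols, 1.70 to 3.93% of fragments, stayed in the CPM denominator and out of the tests. The 13 members and the gene lists were chosen with earlier results of these data known. Rounded sums of the 8 dnE2f4 libraries went through filterByExpr, TMM and edgeR 4.0.16 (quasi-likelihood, R 4.3.3), with a mean per group, Benjamini-Hochberg adjustment and a threshold of 0.05. DESeq2 1.42.0 was an alternative. All 13 members are named. Tested on simulated counts for 6 h over 3 h (11013 symbols), this recovered 82.1% of 67 symbols changed 4-fold, 10.4% of 67 changed 2-fold and 0 of 66 changed 1.5-fold, with 3 unchanged symbols called. All other symbols were unchanged there, whereas in the caps 22.8% were called higher and 20.9% lower. The adjustment depends on that share, so the recovered shares do not carry over to the caps. No pair of libraries within a labelled group was a duplicate (lowest chi-square per degree of freedom 14.7). Pairs across groups were not compared.

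The meaning of a replicate number is not in the labels. Among dnE2f4 libraries of the same number, departures from group means correlated at 0.27, 0.30 and 0.43 between 3 and 6 h, against -0.31 to -0.03 for different numbers. The numbers were therefore taken to pair the libraries, and replicate number as a block is an alternative. Between 6 and 9 h only 2 numbers are shared, and their common value of 0.30 is a single comparison.

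Peaks and targets are on JGIv7b scaffolds. Of the symbols 11 matched the RefSeq gene table of assembly v10.1, used for names only. No genome was used, so no sequence is given. The values of 1 listed Notch pathway gene are not reported here.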

Additional observations from a re-analysis of the deposited data

Results flagged for a closer look

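Both libraries labelled replicate 2 at 9 h stood outside every comparison, and 3 values in them exceeded all libraries used for their labelled condition. In the library labelled Multicilin 9 h replicate 2, e2f4 was at 1427 CPM and pde3a at 11.0 CPM, which for pde3a is above the 9.85 CPM that is its highest in the Multicilin libraries used. In the library labelled dnE2f4 9 h replicate 2, popdc2 was at 4.53 CPM, above the 2.57 CPM that is its highest in the dnE2f4 libraries used. By e2f4 both libraries are opposite to their labels. In the Multicilin libraries used popdc2 was at 0.885 and 4.13 CPM at 9 h and reached 10.4 CPM at 6 h. The 4.53 CPM thus lies above both at 9 h and below the highest at 6 h. The highest pde3a in the dnE2f4 libraries used was 7.86 CPM, which 11.0 CPM also exceeds.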

How the results depend on the processing

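Between 6 and 3 h 8 to 10 of the 13 symbols rose in dnE2f4 caps under every alternative run. The count was 10 with 16 libraries of both conditions, with the replicate block and without dnE2f4 6 h replicate 1. Of all symbols tested 26.3%, 27% and 19.5% rose in these fits, against 22.8% in the main fit. The count of 8 came with uniquely assigned counts, where 16% of all symbols rose and rtn1 had an edgeR adjusted p of 0.0504. The replicate block changed no call other than those given above.

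The set of 13 became 151 symbols with no minimum level, 6 with a minimum of 10 CPM, 48 at a limit of 1.5-fold, 3 at 3-fold and 9 to 21 without single libraries. TMM and DESeq2 scaling each gave 13 symbols, of which 10 were shared, rtn1, als2cr8 and pde3a being lost. The 9 h mean with replicate 2 gave 14, of which 12 were shared.

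Between 9 and 6 h the count of 3 became 6 with DESeq2, 5 with library totals and 0 with uniquely assigned counts (6 at an unadjusted p under 0.05). It was 8 with the replicate block and 1 to 5 without single libraries. With 16 libraries of both conditions it was 5, in a fit whose spread also rests on the 8 Multicilin libraries that chose the members. It was also 5 with dnE2f4 9 h replicate 2 kept as labelled, although by e2f4 that library is opposite to its label. Over all symbols tested, lower calls ran to 241 with uniquely assigned counts, 1387 with DESeq2, 1590 with 16 libraries, 1496 with replicate 2 kept, 1702 with the block and 1756 with library totals, against 1080. The cause was not tested.

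The count of 8 members that met the rule in dnE2f4 caps was 5 with TMM and 6 to 9 without single libraries. The median ratio of -0.42 at 6 h was -0.50 with TMM and -0.29 to -0.059 without single libraries. With windows of 500 and 5000 bp the members with a peak numbered 3 and 4 with Multicilin and 3 and 5 without, against 3 and 4 within 1 kb.

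Signs turned for 2 members, neither past the threshold. For popdc2 at 9 h over 6 h the log2 difference was -0.18 with library totals, -0.95 with uniquely assigned counts, -1.17 without the other target set, -0.17 with the replicate block, and -1.19 to 0.66 without single libraries, with -0.21 and -1.19 without dnE2f4 6 h replicate 1 and 9 h replicate 3. For sall3 at 6 h over 3 h it was -0.41 with uniquely assigned counts, -0.24 with the block and -1.17 to 0.76 without single libraries, and at 9 h over 6 h it was -3.46 to 0.33 without single libraries. In both the turned sign came without dnE2f4 6 h replicate 1. Levels of a few CPM and 2 libraries at 9 h, with replicate 1 alone left without the other target set, limit the precision.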
